A study of Mus musculus with 8 samples.

Results

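Oral butyrate was compared with water in skin that had never met house dust mite allergen (HDM), in 4 of the 8 mice of the series. The members are the samples whose labels read SCFA and Baseline (here butyrate, replicates 1 and 3) and Vehicle and Baseline (here CTL, replicates 1 and 2). Butyrate mice drank 400 mM sodium butyrate, and CTL mice were given the vehicle. The study started butyrate 2 weeks ahead of allergen exposure and continued it to the end of the experiment. Baseline skin was taken when treatment ended, and the total length of treatment in baseline mice is not stated. All 4 were BALB/c females kept on a low-fibre diet, and none was exposed to allergen. The study's text gives an age of 6 to 8 weeks for the females of its HDM model and no separate age for baseline mice. The other 4 mice, used here to estimate the spread and for 1 comparison, were lesional: they received 4 epicutaneous doses of 15 µg HDM over 2 weeks, with butyrate (replicates 3 and 4) or without it (replicates 4 and 5). Dorsal skin, baseline skin included, was shaved for the study's flow cytometry, and whether this was done for the RNA samples of baseline skin is not given in the sources used here.

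Butyrate is a short-chain fatty acid that gut bacteria make from dietary fibre. It inhibits histone deacetylases, signals through G protein-coupled receptors and is oxidised in mitochondria. Skin in young mice also carries a second, strong source of transcriptional change: hair follicles grow in waves, passing from rest (telogen) to growth (anagen), when the matrix divides and builds the hair shaft and its inner root sheath from keratins, trichohyalin and keratin-associated proteins. A piece of skin in anagen and one in telogen differ in these messages whatever the mice drank.

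One library stood apart before any comparison. Total counts were between 18700064 and 20544126 in the 4 baseline mice, so depth was alike. The basal keratinocyte keratins Krt5 and Krt14, which mark skin epithelium, were present in all 4 (3797 to 4944 and 2419.6 to 2809 CPM, the count scaled to the TMM-adjusted library size). In butyrate replicate 3, 74 genes of the hair shaft keratins, the inner root sheath and the keratin-associated proteins took 3.29% of all counts. In each of the other 7 mice of the series they took between 0.00178% and 0.00298%. Of these 74 genes, 72 had more than 3 counts in butyrate replicate 3, against 8 to 24 in the other mice. No lesional mouse showed the hair pattern either, so butyrate replicate 3 was the single mouse of 8 with it. Every result below is therefore given for each butyrate mouse separately. In bulk skin, more cells of a kind and more RNA per cell cannot be told apart.

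**Figure D1:**
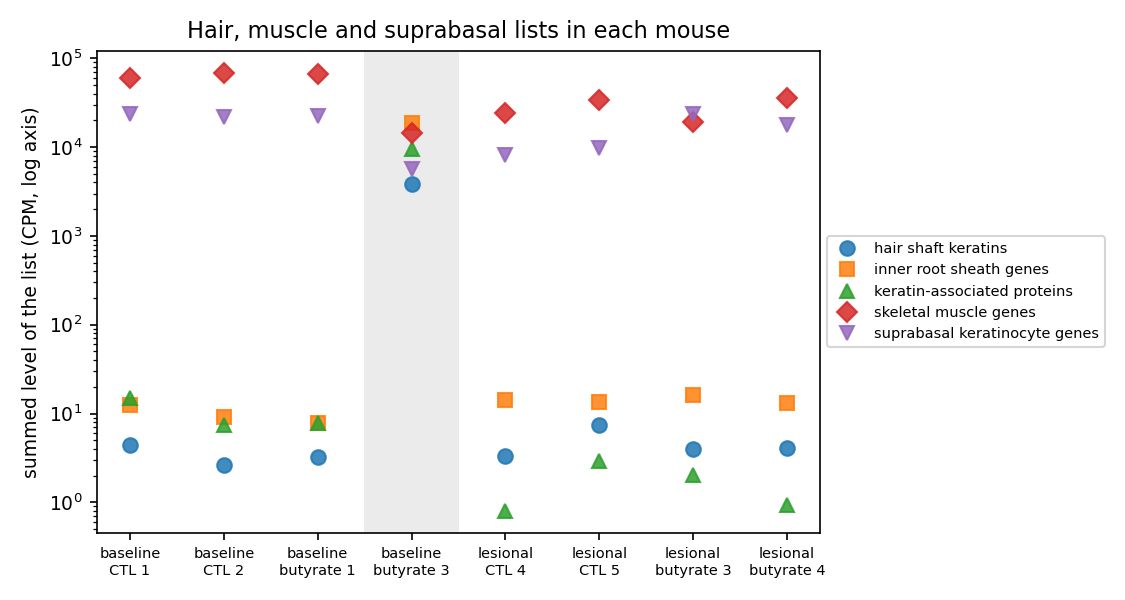
Summed level of 5 gene lists (CPM, log axis) in each of the 8 mice, 1 point per list and mouse, with baseline butyrate replicate 3 shaded. The 3 hair lists lie between 3831 and 18782.5 CPM in that mouse and at most at 16.2 CPM in the other 7, while its skeletal muscle and suprabasal lists are the lowest of the 8.

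The distances between pairs of mice showed the same split. Over the 14257 genes with a mean of at least 1 CPM in baseline skin, 203 differed more than 2-fold between the CTL mice. Butyrate replicate 1 differed by that much from CTL replicate 1 in 310 genes and from CTL replicate 2 in 95 genes. It was thus nearer to CTL replicate 2 than the CTL mice were to each other. Butyrate replicate 3 differed from the CTL mice in 3310 and 3676 genes and from butyrate replicate 1 in 3764 genes. For comparison, the lesional CTL mice differed from each other in 142 genes and the lesional butyrate mice in 600.

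No gene passed the test of butyrate against CTL in baseline skin. The edgeR quasi-likelihood test on all 8 mice called 0 of 15163 genes (0%), a call needing an FDR under 0.1 (Benjamini-Hochberg) together with a change of more than 2-fold. The smallest FDR was 0.714, and 529 genes had an unadjusted p below 0.05. Of those 529, 348 lay outside the CTL range in butyrate replicate 3 alone, 46 in both butyrate mice on the same side, and 7 in replicate 1 alone, by the 1.5-fold rule given in the next paragraph. limma-voom also called 0 genes (437 at p below 0.05). DESeq2 called 58, of which 51 were higher in butyrate skin. Among these 58, 43 belonged to replicate 3 alone, including Krt25, Krt27, Krt28, Krt71 and Tchh of the inner root sheath, and 14 were outside the CTL range in both mice. Without butyrate replicate 3, edgeR called 0 genes (346 at p below 0.05), and without butyrate replicate 1 it called 3777.

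To separate what the butyrate mice shared from what 1 of them carried, each gene was placed by a rule of size with no test. A mouse was outside the CTL range where its level was at least 1.5-fold above the higher, or below the lower, CTL mouse, with a floor of 3 counts added to every library. Both butyrate mice were above the CTL range for 24 of 14257 genes (0.168%) and below it for 31 (0.217%). Replicate 3 alone was outside for 5401 genes (37.9%), 2283 higher and 3118 lower. Replicate 1 alone was outside for 81 genes (0.568%), 59 higher and 22 lower. In 103 genes (0.722%) the mice were on opposite sides. Counts of list members given below are to be read against these shares of all genes. Most of the apparent butyrate difference in baseline skin was thus carried by 1 mouse. The genes nearest the rule's limit were Nmb (1.50007-fold, inside) and Ccdc68 (1.494-fold, outside) on the higher side, and Kcna2 (1.502-fold, inside) and Sec14l5 (1.499-fold, outside) on the lower side.

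**Figure D2:**
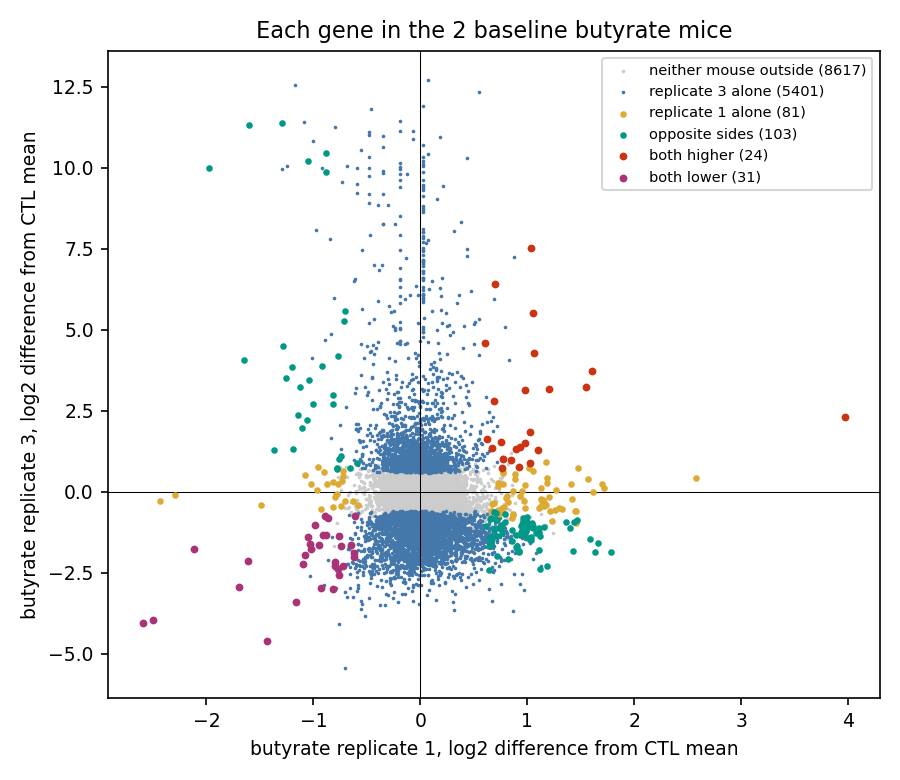
Each point is a gene, placed by its log2 difference from the CTL mean in butyrate replicate 1 (horizontal) and replicate 3 (vertical), and coloured by the side of the CTL range on which each mouse lay. The cloud is narrow along the replicate 1 axis and wide along the replicate 3 axis, up to 12.7, where 5401 genes were outside in that mouse alone, against 24 and 31 in the shared quadrants.

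The metallothioneins Mt1 and Mt2 were lower in both butyrate mice, Mt2 by nearly the same amount in each and Mt1 by more in replicate 3. They encode small cysteine-rich proteins that bind zinc and copper, and metal and glucocorticoids induce them. Mt2 (chr8:94172664-94173568, plus strand) was at 199.6 and 233 CPM in CTL replicates 1 and 2, and at 109 and 107 CPM in butyrate replicates 1 and 3. Mt1 (chr8:94179082-94180327, plus strand) was at 177 and 219.96 CPM in the CTL mice and at 105 and 78.5 CPM in the butyrate mice. For neither gene did the groups overlap. The log2 fold change was -1.003 ± 0.22 (SE) for Mt2, with an unadjusted p of 0.0036 and an FDR of 0.714 in edgeR, and -1.11 ± 0.28 for Mt1. For Mt2 the fitted value was -0.99 without butyrate replicate 3 and -1.02 without replicate 1, and for Mt1 it was -0.92 and -1.34. The rule that chose these genes required replicate 1 to lie below both CTL mice, so these values describe the size and support nothing. Mt3 was at 0.333 to 1.39 CPM in the 4 mice. Mt4, which is made in differentiating squamous epithelium, was at 27.8, 33.8 and 33.4 CPM in the first 3 mice and at 95.9 CPM in butyrate replicate 3. Mt1 and Mt2 are close relatives in sequence, and how reads that match both were assigned is not given in the sources used here.

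The stretches before the transcription starts of these neighbouring genes are shown because both genes were lower together and are classical targets of the metal-sensing factor MTF-1. They are the 250 bases upstream of the RefSeq starts (GRCm38.p6, plus strand, 5′ to 3′), at chr8:94172368-94172617 for Mt2 and chr8:94178839-94179088 for Mt1. Capitals mark the core of the metal response element, TGCNCNC, on either strand.
Mt2: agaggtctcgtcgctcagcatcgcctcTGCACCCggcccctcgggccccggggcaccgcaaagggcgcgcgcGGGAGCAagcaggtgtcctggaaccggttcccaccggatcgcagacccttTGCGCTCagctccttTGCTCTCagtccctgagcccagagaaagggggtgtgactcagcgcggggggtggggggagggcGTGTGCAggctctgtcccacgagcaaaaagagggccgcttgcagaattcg
Mt1: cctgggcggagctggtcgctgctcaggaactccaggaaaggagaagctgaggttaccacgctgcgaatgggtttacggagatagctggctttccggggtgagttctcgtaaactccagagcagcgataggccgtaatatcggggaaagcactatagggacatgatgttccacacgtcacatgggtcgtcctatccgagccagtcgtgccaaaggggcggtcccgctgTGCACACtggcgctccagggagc
Within these stretches Mt2 held 5 matches and Mt1 held 1. The RefSeq starts differ from the gene starts given above. The Mt1 stretch runs past its gene start at 94179082, and the Mt2 stretch stops before its own at 94172664. The counts depend on the start used and are no contrast between the 2 genes. Sequence beyond them was not searched, so these are not counts for the whole promoter of either gene. Of 32851 RefSeq promoter stretches of the same length, 44.4% held at least 1 match and 0.344% held 5 or more. These are matches of letters, not measured binding.

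Among the other lower genes above 5 CPM, Errfi1 and Aox4 also stayed within 1.5-fold between the butyrate mice. Errfi1, a feedback inhibitor of the EGF receptor, was at 201 and 204 CPM in the CTL mice and at 132 and 121 CPM in butyrate replicates 1 and 3 (log2 fold change -0.68 ± 0.25). Aox4, an aldehyde oxidase that turns retinaldehyde into retinoic acid, was at 33.7 and 12.2 CPM in CTL skin and at 4.57 and 5.91 CPM in butyrate skin (-2.13 ± 0.48). Its CTL mice differed from each other by more than the gap of 2.05-fold between the groups. Rufy4, which lies under the 5 CPM limit for naming and was picked after its values were seen, was at 5.22 and 6.38 against 3.04 and 3.38 CPM. Of the 9 listed glucocorticoid-responsive genes, Mt1, Mt2 and Errfi1 were lower in both mice, as were 0.217% of all genes. These are genes already given above from the rule, so they are no separate result. Fkbp5, Klf9, Zbtb16 and Tsc22d3 were outside the CTL range in replicate 3 alone, as were 37.9% of all genes, and Sgk1 and Ddit4 in neither mouse. Zbtb16, for instance, was at 74.8 and 86.0 CPM in CTL skin, 52.7 CPM in butyrate replicate 1 and 16.4 CPM in replicate 3. None of the 9 passed the test.

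On the higher side, the genes above 5 CPM that stayed within 1.5-fold between the butyrate mice were Penk, Aldh1a3, Dpp4 and Hs3st1. Penk, which encodes the opioid peptide precursor proenkephalin, was at 12.0035 and 13.8 CPM in CTL skin and at 24.7 and 33.8 CPM in butyrate replicates 1 and 3. Its log2 fold change was 1.18 ± 0.21 (unadjusted p = 0.0012, FDR 0.714, edgeR), and 0.93 without butyrate replicate 3. Aldh1a3, an enzyme that makes retinoic acid from retinaldehyde, was at 9.28 and 8.27 CPM against 18.9 and 21.6 CPM (1.21 ± 0.42, and 1.11 without replicate 3). The rule that chose both genes fixed the side on which each butyrate mouse lay, so these values describe size and support nothing.

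Dpp4, a cell surface peptidase found on dermal fibroblasts and T cells, was at 58.5 and 62.5 CPM in CTL skin and at 104 and 123 CPM in butyrate skin (0.91 ± 0.38). Hs3st1, a heparan sulfate sulfotransferase, was at 3.39 and 4.61 against 7.498 and 10.1 CPM (1.14 ± 0.29). For all 4 genes the rule required the CTL mice to lie below both butyrate mice, so these values too describe size and support nothing. The gaps were 1.61 to 2.02-fold. A further gene had the widest gap of all but a mean under 5 CPM, and was picked after its values were seen. It was Mrgprg, a Mas-related G protein-coupled receptor, at 0.889 and 0.500 CPM in CTL skin, 13.0 CPM in butyrate replicate 1 and 4.00 CPM in replicate 3.

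Many of the shared genes were shared in side but not in size. Of the 24 genes that were higher in both mice, 12 differed more than 2-fold between the butyrate mice and 9 stayed within 1.5-fold of each other. Of the 31 that were lower, 16 differed by more than 2-fold and 9 stayed within 1.5-fold. Replicate 3 lay farther from the CTL mean than replicate 1 in 20 of the 24 and 28 of the 31. The extreme cases were Sptssb, Fbp1 and Ctse. Fbp1, a gluconeogenic enzyme, was at 0.500 and 0.555 CPM in CTL skin, 0.958 CPM in butyrate replicate 1 and 58.5 CPM in replicate 3. Ctse, an aspartic protease of endosomes, was at 1.22, 1.05, 2.54 and 59.7 CPM in the same order. Sptssb, a small subunit of serine palmitoyltransferase, had 0 and 1 counts in the CTL mice and 4 counts in butyrate replicate 1, near the floor, but 34.9 CPM in replicate 3. Gpr37, an orphan receptor, was at 2.06, 1.89, 3.27 and 14.7 CPM. 6430571L13Rik was at 8.11, 8.10, 12.6 and 25.5 CPM.

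On the lower side, 3 of the genes encode proteins of contractile smooth muscle. Actg2, the enteric form of smooth muscle actin, was at 26.6 and 19.9 CPM in CTL skin, 11.3 CPM in butyrate replicate 1 and 6.72 CPM in replicate 3 (-1.37 ± 0.34). Cnn1, the actin-binding protein calponin, was at 19.1 and 20.8 CPM against 11.6 and 3.72 CPM (-1.38 ± 0.51). Prkg1, the cGMP-dependent kinase that relaxes smooth muscle, was at 36.2 and 28.8 CPM against 18.9 and 5.34 CPM (-1.42 ± 0.61). In a list of 13 smooth muscle genes drawn up after these values were seen, these 3 were lower in both mice, 9 were outside in replicate 3 alone (Smtn on the higher side) and Tagln was within the range. Among all genes, 0.217% were lower in both mice and 37.9% were outside in replicate 3 alone. The median log2 difference from the CTL mean over the 13 was -0.47 in replicate 1 and -1.96 in replicate 3.

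Other genes followed the same graded order. Atf3, a stress-induced transcription factor, was at 51.1 and 38.5 CPM in CTL skin, 20.97 CPM in replicate 1 and 11.5 CPM in replicate 3 (-1.47 ± 0.40). Socs2, an inhibitor of growth hormone signalling, was at 20.5, 20.2, 11.6 and 4.05 CPM. Nptx2, a neuronal pentraxin, was at 10.3, 10.2, 5.30 and 1.19 CPM. Lce1g, a late cornified envelope gene, was at 20.3, 13.8, 8.63 and 5.29 CPM. It was the single shared gene of the 16 late cornified envelope genes above 1 CPM, of which 14 were outside in replicate 3 alone. Map1a and Grip2 were lower in replicate 3 than in replicate 1 by more than 2-fold. None of these genes passed the test.

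**Figure D3:**
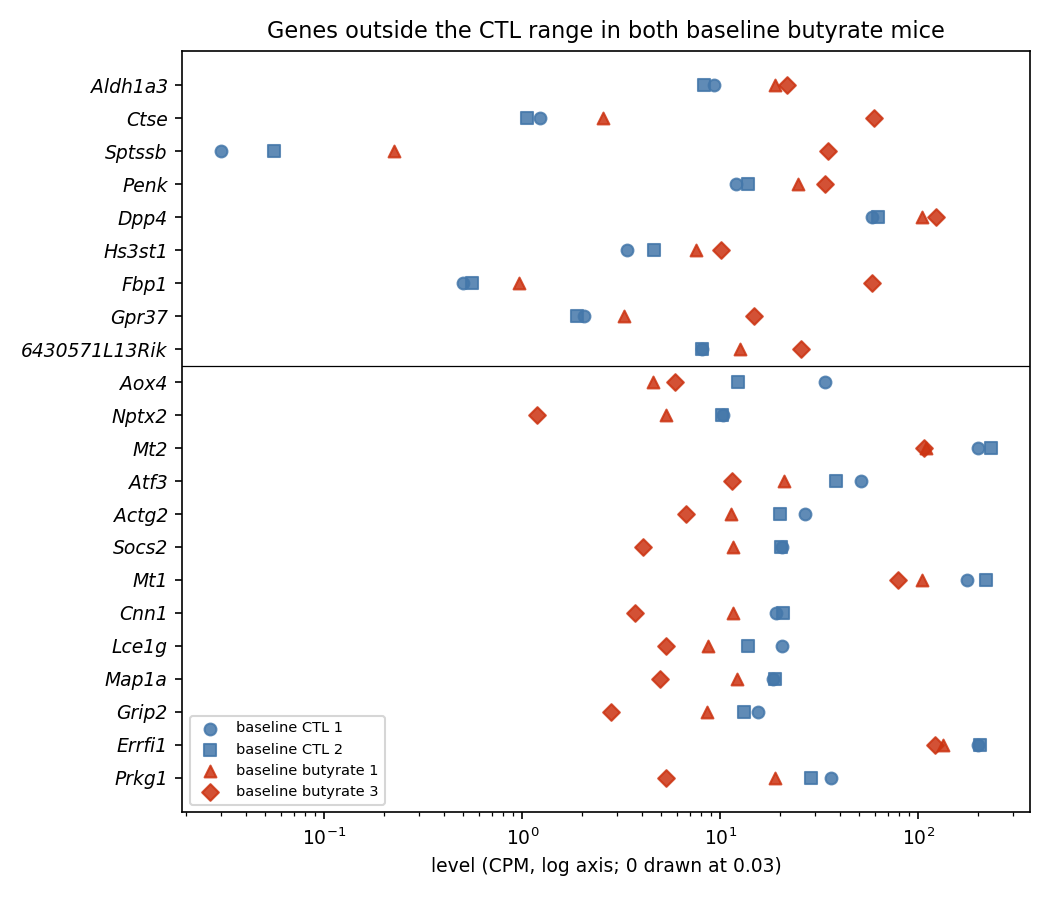
Level (CPM, log axis) of the 22 genes with a mean of at least 5 CPM that were outside the CTL range on the same side in both baseline butyrate mice, 1 symbol per mouse, higher genes above the line and lower genes below it. The butyrate mice coincide for Mt2 and Errfi1 and lie close together for Aldh1a3, Dpp4 and Penk, while replicate 3 lies far to the right for Ctse, Sptssb and Fbp1.

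The lesional mice were not used by the rule, and their values for these genes are independent of it. Among the 14257 genes, both lesional butyrate mice were above both lesional CTL mice in 3210 (22.5%) and below them in 3126 (21.9%). Of the 31 genes that were lower in both baseline butyrate mice, 12 (38.7%) were also lower in both lesional butyrate mice, 9 (29.0%) were higher and 10 overlapped. Of the 24 that were higher, 3 (12.5%) were also higher, 10 (41.7%) were lower and 11 overlapped. The share with the same side in lesional skin was below the background of 22.5% for the higher genes and above that of 21.9% for the lower genes. Both shares with the opposite side were above their backgrounds. These shares rest on few genes and were not tested. Mt2 was at 277 and 428 CPM in lesional CTL skin and at 161 and 157 CPM in lesional butyrate skin (-1.15 ± 0.22). Mt1 was at 204 and 338 against 127 and 125 CPM (-1.10 ± 0.28). Neither passed the test in lesional skin (FDR 0.737, edgeR). The 2 metallothioneins were thus among the 12 lower genes with the same side in lesional skin, a side on which 21.9% of all genes lay. Prkg1 was another, at 27.8 and 34.7 CPM in lesional CTL skin and 6.25 and 12.5 CPM in lesional butyrate skin. Their side in baseline skin was fixed by the rule that chose them, so only the lesional mice add to it. The difference between the effects in lesional and baseline skin was -0.15 ± 0.31 for Mt2 and 0.01 ± 0.39 for Mt1. The test of that difference called 0 of 15163 genes (0%) over the series (703 at an unadjusted p below 0.05, edgeR).

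**Figure D4:**
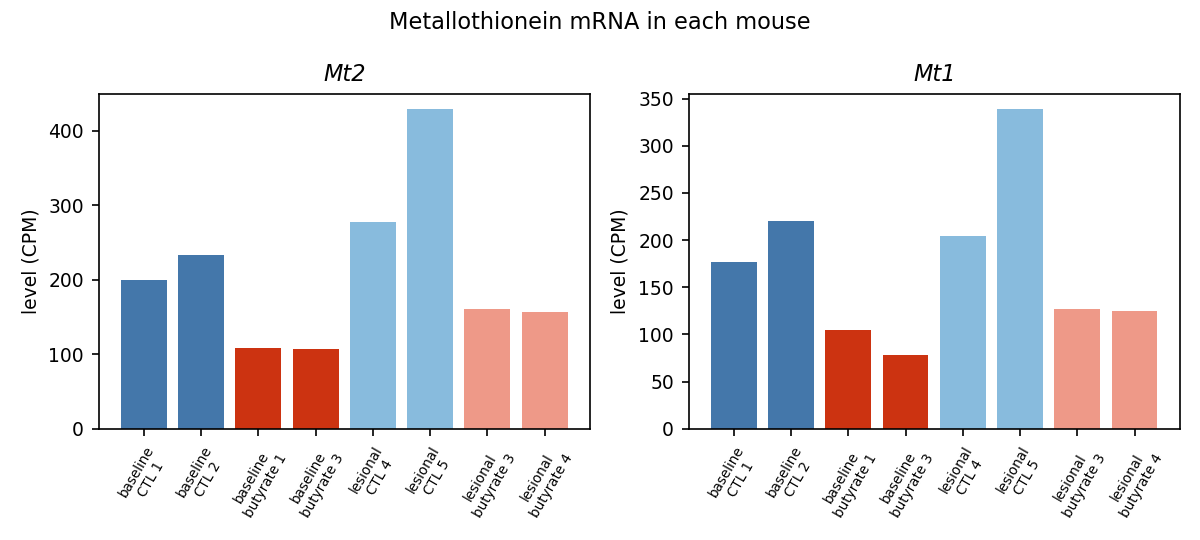
Level (CPM, axis from 0) of Mt2 and Mt1 in each of the 8 mice, 1 bar per mouse. In baseline skin the butyrate bars are at 109 and 107 CPM for Mt2 below CTL bars at 199.6 and 233 CPM, and in lesional skin at 161 and 157 CPM below 277 and 428 CPM. The side in baseline skin was fixed by the rule that chose both genes.

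The hair genes made the clearest contrast between the butyrate mice. Tchh, trichohyalin of the inner root sheath and medulla, was at 7.61 and 6.72 CPM in CTL skin, 5.07 CPM in butyrate replicate 1 and 6309 CPM in replicate 3. Krt71, an inner root sheath keratin, was at 1.61, 0.500, 0.620 and 3882 CPM in the same order, and its partner Krt25 was at 0.611, 0.167, 0.0564 and 3027 CPM. Krt35, an early hair shaft keratin, had 533 CPM in replicate 3, and Krt33a had 710.2 CPM, where the other baseline mice had at most 1.28 CPM. All 13 hair shaft keratins and 8 of the 9 inner root sheath genes were outside the CTL range in replicate 3 alone. The ninth, Krt73, was called opposed only because replicate 1 had 0 counts. Of 52 keratin-associated proteins, 47 reached 1 CPM and 45 of these were outside in replicate 3 alone. That minimum is a mean over the baseline mice. The list summed to 14.8, 7.49 and 7.72 CPM in CTL replicates 1 and 2 and butyrate replicate 1, against 9567 CPM in replicate 3. Most members thus passed the minimum only through replicate 3, and their share outside in that mouse follows from this. Krtap7-1 was at 1429 CPM and Krtap8-1 at 1301 CPM there, and both were below 1 CPM in the other 3 mice. The median log2 difference from CTL was 9.50 for hair shaft keratins, 11.39 for the inner root sheath and 9.20 for keratin-associated proteins in replicate 3. In replicate 1 it was -0.06, -0.46 and -0.19, in genes near the floor. Over all 14257 genes the median was -0.0065 in replicate 1 and -0.0030 in replicate 3. Because most of these genes were counted in 1 mouse, the low-count filter kept only 15 of the 74 in the fit of all mice.

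LEF1, which acts in the hair matrix, is known to act through TCF/LEF motifs. The promoters of Krt34 and Tchh are shown because, of the 16 hair shaft and inner root sheath genes with a RefSeq stretch, they were the 2 that held 2 matches, and they were picked for that. They are the 250 bases before the RefSeq starts (GRCm38.p6, 5′ to 3′), at chr11:100041555-100041804 on the minus strand and chr3:93442080-93442329 on the plus strand. Capitals mark CTTTGAA or CTTTGAT on either strand.
Krt34: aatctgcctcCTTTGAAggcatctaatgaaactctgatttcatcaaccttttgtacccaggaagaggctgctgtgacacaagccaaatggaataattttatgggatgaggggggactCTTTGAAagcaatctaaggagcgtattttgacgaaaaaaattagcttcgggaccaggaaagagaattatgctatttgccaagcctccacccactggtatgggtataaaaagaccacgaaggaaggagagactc
Tchh: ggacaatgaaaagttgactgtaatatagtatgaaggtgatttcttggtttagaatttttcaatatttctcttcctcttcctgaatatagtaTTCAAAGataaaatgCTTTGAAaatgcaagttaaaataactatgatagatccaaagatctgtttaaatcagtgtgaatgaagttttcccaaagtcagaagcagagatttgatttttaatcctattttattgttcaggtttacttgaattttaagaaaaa
Of the 16 genes, 5 held at least 1 match, against 7.48% of all 32851 stretches, and 11 held none, Krt71 and Krt25 among them. A match is a description of letters and no test of LEF1.

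The regulators and cells of the growing bulb were high in the same mouse. Lef1 was at 6.78 and 7.22 CPM in CTL skin, 5.07 CPM in butyrate replicate 1 and 81.9 CPM in replicate 3. Dlx3 was at 20.9, 19.6, 19.9 and 378 CPM and Cux1, abundant in the inner root sheath, at 115, 102, 108 and 467 CPM. Msx2, a homeobox gene of the matrix, was at 2.56, 2.33, 2.03 and 124 CPM, and Hoxc13, which activates hair keratin genes, at 12.2, 7.38, 9.47 and 243 CPM. Shh, the matrix signal for downgrowth, was at 0.111, 0.167, 0.0564 and 12.004 CPM. In all, 15 of the 17 hair matrix regulators were outside the CTL range in replicate 3 alone, Wnt10a and Gata3 being the exceptions, and none in replicate 1. Fgf5, which brings anagen to its end, was at 0.945 and 0.666 CPM in CTL skin, 0.733 CPM in replicate 1 and 64.7 CPM in replicate 3.

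Melanocyte genes behaved alike, although BALB/c mice are albino. Dct was at 20.2, 22.8, 17.3 and 278 CPM, and Tyr, the tyrosinase gene, at 0.556, 0.500, 0.564 and 53.3 CPM. Of the 9 genes, 7 were outside in replicate 3 alone. Of 25 cell cycle genes, 22 were outside in replicate 3 alone, with Mki67 at 144 and 139 CPM in CTL skin, 122 CPM in replicate 1 and 386 CPM in replicate 3. Genes of the bulge and resting follicle went both ways. Krt15 was at 1860.3, 1786, 1681 and 694 CPM, and Fgf18, a signal of telogen, at 21.9, 20.0, 19.9 and 4.86 CPM. Lgr5 was at 39.6, 38.7, 31.3 and 96.7 CPM, and Sox9 at 89.0, 76.5, 72.7 and 183 CPM.

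The fit that left out butyrate replicate 1 measured what replicate 3 carried, with the lone mouse assumed to vary like the other groups. It called 1466 of 15677 genes higher (9.35%) and 2311 lower (14.7%). The called genes included all 13 hair shaft keratins, all 9 inner root sheath genes, 50 of 50 tested keratin-associated proteins, 15 of 25 cell cycle genes and 8 of 9 melanocyte genes, each higher. On the lower side stood 14 of 15 skeletal muscle genes, 12 of 14 macrophage and dendritic cell genes, 16 of 21 late cornified envelope genes and 7 of 12 suprabasal keratinocyte genes. Such counts describe 1 mouse, and butyrate and the hair cycle cannot be told apart in it. Most of the hair genes entered this fit only because replicate 3 was high. The low-count filter kept 50 keratin-associated proteins here but 3 in the fit of all mice. The calls of the hair genes thus follow from the filter and support nothing.

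Interfollicular differentiation genes went both ways in replicate 3, the suprabasal keratins being low. Krt10, a keratin of the suprabasal layers, was at 6949.7 and 6666 CPM in CTL skin, 6706 CPM in butyrate replicate 1 and 1065 CPM in replicate 3. Krt1, its partner, was at 3356, 3292, 2961 and 372 CPM. Lor, the main cornified envelope protein loricrin, was at 701, 616, 542 and 119 CPM. Ivl, involucrin, went the other way at 147, 147, 150.2 and 344 CPM, as did Sprr1a at 154, 139, 137 and 1516 CPM. Lce1m was at 687, 598, 611 and 139 CPM, and Calm4 at 867, 804, 809 and 198 CPM. None of these barrier genes was outside the CTL range in butyrate replicate 1. The median log2 difference over the 11 of 12 suprabasal genes above 1 CPM was -0.05 in replicate 1 and -1.85 in replicate 3. For late cornified envelope genes it was -0.47 and -2.25, for the 16 cornified envelope genes -0.07 and -0.34, and for the 6 small proline-rich genes -0.05 and 1.28. Of the 16 cornified envelope genes, 8 were outside in replicate 3 alone, against 37.9% of all genes, and 7 in neither mouse.

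Lipid genes varied by pathway. Elovl4, which makes the very long fatty acids of acylceramides, was at 1501 and 1035 CPM in CTL skin, 1136 CPM in replicate 1 and 469.5 CPM in replicate 3. Acacb, an acetyl-CoA carboxylase, was at 247, 243, 231 and 59.0 CPM, and Elovl6 at 906, 801, 894 and 435 CPM. Acaca was at 95.9 and 202 CPM in the CTL mice themselves and at 154 and 109 CPM in the butyrate mice, so the groups overlapped. Cers3 (56.2, 46.1, 53.7 and 66.5 CPM) and Smpd1 (86.7, 83.2, 86.2 and 90.9 CPM) stayed inside the 1.5-fold limit in both. Of the 21 ceramide genes, 11 were outside in replicate 3 alone and none in replicate 1, and of the 15 fatty acid synthesis genes, 7 and none. Of 22 cholesterol synthesis genes, 4 were outside in replicate 3 alone and 18 in neither mouse, with a median of -0.20 in replicate 3. Over all genes 37.9% were outside in replicate 3 alone, so the ceramide and fatty acid counts were near the background.

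Genes of other tissues in the sample were lower in replicate 3 as well. Acta1, skeletal muscle actin of the panniculus carnosus, was at 11325 and 13753 CPM in CTL skin, 13735 CPM in replicate 1 and 2674 CPM in replicate 3. All 15 muscle genes were outside in replicate 3 alone, with a median of -2.02, against 0.14 in replicate 1. Cd74, of antigen-presenting cells, was at 455, 481, 599 and 138 CPM, and 13 of the 14 macrophage and dendritic cell genes were outside in replicate 3 alone. Of 12 endothelial genes, 10 were outside in replicate 3 alone. The share of all genes outside in that mouse alone was 37.9%. Adipocyte genes were below that share, with 3 of 14 outside in replicate 3 alone, and Fabp4 was at 672, 1023, 1074 and 942 CPM. How far a change in the share of each tissue accounts for these values was not tested.

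Type 2 cytokines were near or under the floor throughout. Il4, Il5 and Il13 were at or under 0.282 CPM in all 4 baseline mice, so no difference was detectable at this depth. Il33, an epithelial alarmin, was at 31.9, 39.2, 33.4 and 10.2 CPM, and Tslp at 5.61, 6.60, 8.63 and 1.19 CPM. Il4ra, the receptor chain shared by IL-4 and IL-13, was at 59.4 and 79.7 CPM in CTL skin, 49.2 CPM in butyrate replicate 1 and 26.1 CPM in replicate 3. It was below both CTL mice in both butyrate mice but under the 1.5-fold limit in replicate 1. Of the 12 listed genes above 1 CPM, 8 were outside in replicate 3 alone, against 37.9% of all genes. Ccl24 was opposed and none was shared.

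Genes that handle butyrate itself were not shared either. Slc16a1, the monocarboxylate transporter that carries butyrate into cells, was at 78.9, 65.8, 67.5 and 22.7 CPM, and Slc16a7 at 6.06, 6.66, 6.65 and 52.7 CPM. The receptor Ffar2 was at 4.00, 5.11, 5.41 and 4.95 CPM, within the CTL range rule in both mice, and Ffar3 had at most 0.0556 CPM. H1f0 and Cdkn1a are induced by deacetylase inhibitors in cultured cells. H1f0 was at 162 and 157 CPM in CTL skin, 158 CPM in butyrate replicate 1 and 359 CPM in replicate 3, and Cdkn1a at 189.9, 178, 166 and 307 CPM. In butyrate replicate 1, H1f0 lay between the CTL mice and Cdkn1a below them by less than the 1.5-fold limit.

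Mitochondrial genes were mostly within the limit in both mice. Of 82 nuclear respiratory chain genes above 1 CPM, 68 were outside in neither mouse and 14 in replicate 3 alone, with medians of 0.05 in replicate 1 and -0.28 in replicate 3. By comparison, 37.9% of all genes were outside in replicate 3 alone. Of 26 genes of fatty acid oxidation and ketone metabolism, 19 were outside in neither. Of 12 histone deacetylases, 7 were outside in neither, a share near that of all genes (8617 of 14257), Hdac2 being at 119, 117, 119 and 179 CPM.

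Smaller lists are to be read against the 37.9% of all genes that were outside in replicate 3 alone. Of 14 circadian clock genes, 9 were outside in replicate 3 alone, with Nr1d1 at 175, 184, 184 and 56.3 CPM, and Npas2 was lower in both mice, at 7.11, 4.66, 3.04 and 2.19 CPM. Of 11 dermal papilla genes above 1 CPM, 7 were outside in replicate 3 alone, and Rspo3, which amplifies Wnt signals, was higher in both mice, at 2.56, 2.78, 4.34 and 7.002 CPM. Of 12 immediate early genes, 3 were outside in replicate 3 alone, 8 in neither mouse and Atf3 in both. Sebaceous gland genes were outside in replicate 3 alone in 6 of 10, T cell genes in 8 of 13, mast cell genes in 2 of 6 and basal keratinocyte genes in 5 of 11, the last pair being near the background. None of the lists tallied had more than 3 members outside on the same side in both mice.

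**Figure D5:**
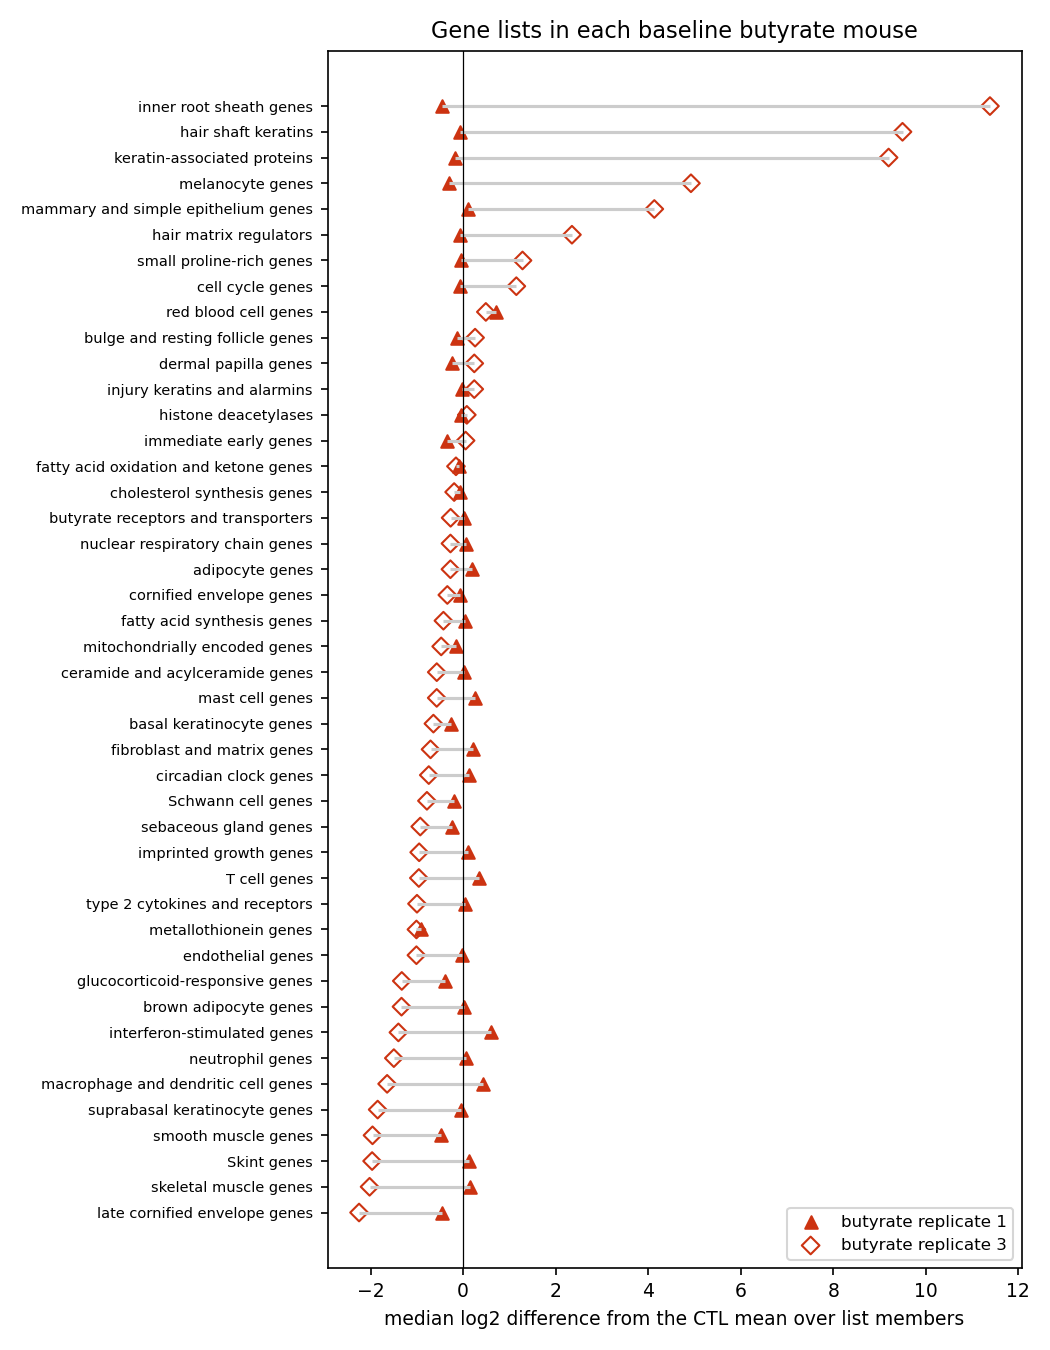
Median log2 difference from the CTL mean over the members above 1 CPM of each gene list, in baseline butyrate replicate 1 (triangles) and replicate 3 (open diamonds), lists ordered by replicate 3. The triangles stay between -0.91 and 0.72, while the diamonds run from -2.25 for late cornified envelope genes to 11.39 for the inner root sheath. The metallothionein list, at -0.91 and -1.01, was drawn up after the values were seen. Of its 3 members above 1 CPM, 2 were chosen by the rule, which fixed their side, and Mt4 was higher in replicate 3 (1.64).

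Butyrate replicate 1 alone departed from CTL in few genes. Of the 14 macrophage and dendritic cell genes, none was outside in replicate 1 alone. Ccl8, Ccr2 and Cybb, which were, are described here after their values were seen. Ccl8, a chemokine of skin macrophages, was at 35.3 and 53.0 CPM in CTL skin, 119 CPM in replicate 1 and 28.6 CPM in replicate 3. Ccr2, a chemokine receptor of monocytes, was at 28.8, 43.6, 76.8 and 24.8 CPM, and Cybb, of the phagocyte oxidase, at 15.0, 21.8, 42.1 and 11.9 CPM. The median over the 14 macrophage and dendritic cell genes was 0.42 in replicate 1 and -1.64 in replicate 3, and Lyz2 was opposed, at 241, 296, 515 and 135 CPM. Krt6b, a keratin of injured and follicular epithelium, was the leading gene above 5 CPM at 15.9, 19.3, 57.9 and 19.1 CPM. Of the 103 opposed genes, 73 were higher in replicate 1 and 30 in replicate 3.

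Interferon-stimulated genes differed between the CTL mice themselves. Irf7 was at 46.0 and 109.5 CPM in CTL replicates 1 and 2, and at 146 and 26.8 CPM in butyrate replicates 1 and 3. The summed level of the 13 genes was 319, 640.2, 703 and 196 CPM in the same order. The groups overlapped, so these genes showed no common direction with butyrate in baseline skin.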

How the data were processed

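The authors aligned reads with STAR v2.5.2 to GRCm38 through RNASik, used featureCounts for the counting, and deposited raw counts of 22740 protein-coding genes as counted for a reverse-stranded library. The deposited counts were analysed here without change. Groups were taken from the labels. CPM values used TMM-scaled library sizes. Tests used the quasi-likelihood method of edgeR 4.0.16 (R 4.3.3, robust, filterByExpr with a minimum count of 10) on all 8 mice, 2 per group, with Benjamini-Hochberg adjustment. Fold changes used a prior count of 0.125. limma-voom (limma 3.58.1), DESeq2 (1.42.0), other scalings and filters, a hair score as covariate and fits without single mice were alternatives. The scripts were tested on simulated data. The 1.5-fold rule used genes of at least 1 CPM. Named genes were those on the same side in both mice above 5 CPM (the first 12 each way), those farthest apart between the mice, the leading members of each list, and genes the study measured. Prkg1, Mrgprg, Rufy4, Lef1, Msx2, Hoxc13, Shh, Fgf5, Fgf18, Lgr5, Ccl8, Ccr2, Cybb, Krt34, Tagln, Wnt10a, Ccl24, Npas2 and Rspo3 were picked after their values were seen. The comparison, the rules and the lists were chosen with earlier results of these data known, and the smooth muscle and metallothionein lists after the values were seen. Counting error only is covered by the floor of 3 counts (0.143 to 0.169 CPM in baseline skin). Nothing in the labels shows whether the samples of a group were collected apart, so p-values measure the spread between these samples. Coordinates came from GENCODE vM21 (GRCm38). The study's own lists of changed genes were not used.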

Additional observations from a re-analysis of the deposited data

Results flagged for a closer look

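In 10 of the 22 genes above 5 CPM that were outside the CTL range on the same side in both baseline butyrate mice, both lesional butyrate mice lay on the opposite side of both lesional CTL mice. These were 6 of the 9 higher genes, where 21.9% of all genes had both lesional butyrate mice below both CTL mice, and 4 of the 13 lower genes, where 22.5% had them above. The values that follow are the butyrate effect in lesional skin minus that in baseline skin, on the log2 scale of CPM with 3 counts added. They were -1.46 for Penk, -2.13 for Aldh1a3, -1.64 for Hs3st1, -4.50 for Ctse, -4.09 for Fbp1 and -5.27 for Sptssb, all higher with butyrate in baseline skin. They were 2.07 for Lce1g, 2.47 for Nptx2, 2.30 for Actg2 and 2.02 for Cnn1, all lower with butyrate in baseline skin. The edgeR test of this difference over all genes gave an FDR of 0.84 for the 9 of these that were tested. Sptssb was dropped by the low-count filter, since it had high counts in baseline butyrate replicate 3 alone (34.9 CPM). Aldh1a3 was at 116 and 50.1 CPM in lesional CTL skin and 48.7 and 32.4 CPM in lesional butyrate skin, so its lesional groups were barely apart. Sptssb was at 0.374 and 0.277 CPM in lesional CTL skin and 0.0955 and 0.0930 CPM in lesional butyrate skin. Fbp1 was at 0.641 and 0.738 against 0.334 and 0.558 CPM. Both genes were near the floor in lesional skin, so their opposite side there shows no reversal. Baseline and lesional mice also differ in HDM exposure, in being separate sets and possibly in the length of butyrate treatment, which cannot be told apart. The genes were chosen for their baseline values, which the listed differences subtract, so a sign opposite to the baseline effect is partly built in. For Ctse, Fbp1 and Sptssb the baseline effect came mostly from butyrate replicate 3. Fbp1, for instance, was at 58.5 CPM there and at 0.958 CPM in baseline butyrate replicate 1.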

How the results depend on the processing

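With 2 mice per group, the count of called genes depended on the tool and on 1 mouse. For baseline butyrate against CTL, 0 genes were called by edgeR on all 8 mice, on the 4 baseline mice, with RLE scaling, without the low-count filter, without the fold threshold or with the hair score as covariate, and 0 by limma-voom on 8 or 4 mice, while DESeq2 called 58. Leaving out 1 baseline mouse at a time gave 0 to 3777 calls (3777 without butyrate replicate 1, 0 without replicate 3 or either CTL mouse). limma-voom, an alternative added after seeing the data, gave 3632 and 0 for the 2 butyrate mice. For the difference between lesional and baseline effects, limma-voom called 0 and DESeq2 37, and leaving out 1 mouse gave 0 to 3275 (3275 without baseline butyrate replicate 1). A gap of 25% in place of 1.5-fold gave 105 shared higher, 181 shared lower, 206 for replicate 1 alone, 7602 for replicate 3 alone and 449 opposed genes. A gap of 2-fold gave 5, 7, 21, 2893 and 14. A minimum of 5 CPM gave 9, 13, 24, 4416 and 54, and RLE scaling 24, 34, 82, 5401 and 100. Taking 1 CTL mouse as the range gave 75 to 99 shared higher, 112 to 156 shared lower, 118 to 314 for replicate 1, 5407 to 6214 for replicate 3 and 184 to 493 opposed, since a range of 1 mouse is narrower by construction. The fitted log2 fold changes of the shared genes above 5 CPM, apart from Sptssb, which the fit of all mice left out, kept their sign with a prior count of 2 and without each baseline mouse, which the choice of these genes fixes and which shows no stability. Depth limits genes near 3 counts. No paired analysis was possible because the baseline groups share 1 replicate number, which marks no common source.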
